A study of Rattus norvegicus with 6 samples.

Results

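The genes of mitosis, the kinetochore and cytokinesis were followed in crushed rat sciatic nerve as a set of 52 named genes. Members were chosen by gene name in the mRNA table, with earlier results of these data known. Of the 52, 50 were found under the symbol used here, and Sgo1 was found under its older symbol Sgol1. Ccnb2 had no row matched by name, and its expression was not analysed here. The 51 genes found were all among the 15195 mRNAs, of 30957 in the table, that passed the filter on low counts. Young Sprague-Dawley rats, about a month of age, had the left sciatic nerve clamped with forceps, and the nerve was taken 4 days (D4) or 7 days (D7) later. The control nerves carry the label of normal control, and the study's methods describe them as exposed surgically without the clamp. Each of the 3 groups held 2 libraries, a and b, each from 1 rat, and the strain was the same in all. The libraries came from whole nerve, so a higher level cannot be told apart from more dividing cells or more RNA in each of them.

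Cells that leave rest copy their DNA, condense the chromosomes, attach them to the spindle through the kinetochore and then cut the cytoplasm at cytokinesis. Most of the genes that encode this machinery are transcribed late in the cell cycle and silenced in resting cells. In a damaged peripheral nerve Schwann cells lose their myelin program and divide, and macrophages, fibroblasts and endothelial cells may divide as well.

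The mRNA libraries held between 18727255 and 25350886 counts, and the members took 0.0199% and 0.0336% of them in the control libraries. That share was 0.334% and 0.373% at D4 and 0.219% and 0.233% at D7. The summed level of the members, in CPM (counts relative to library size, which was scaled by the trimmed mean of M values, TMM), was 305.6 ± 106 (SD, n = 2) in control nerve, 3311 ± 253 at D4 and 2106 ± 68.9 at D7. The order control, D7, D4 held without overlap between libraries for this sum.

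At D4 all 51 members tested rose. A gene was called when the Benjamini-Hochberg adjusted p of edgeR's quasi-likelihood test, over all mRNAs tested, was under 0.05 and the fold change at least 2, and 11.2% of all mRNAs tested were called higher by that rule. The median member had a log2 fold change of 3.78, beside -0.04 for all mRNAs tested. The range ran from 1.44 for Smc4 to 5.36 for Cenpa. In 20 members the rise was at least 16-fold, in 27 it was between 4-fold and 16-fold, and in 4 (Smc4, Smc2, Cenpm and Cenpk) it was less than 4-fold. Both D4 libraries lay above both control libraries in 51 of 51 members, beside 36.9% of all mRNAs tested.

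At D7, 49 of 51 members were still called higher than control, beside 9.83% of all mRNAs tested. The median log2 fold change was 3.16, beside 0.01 for all mRNAs tested. Cenpm (0.85, adjusted p = 0.0785) and Smc4 (1.0 after rounding, just under the fold threshold, adjusted p = 0.011) were not called. Both D7 libraries lay above both control libraries in 51 of 51 members, beside 37.2% of all mRNAs tested.

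**Figure D1:**
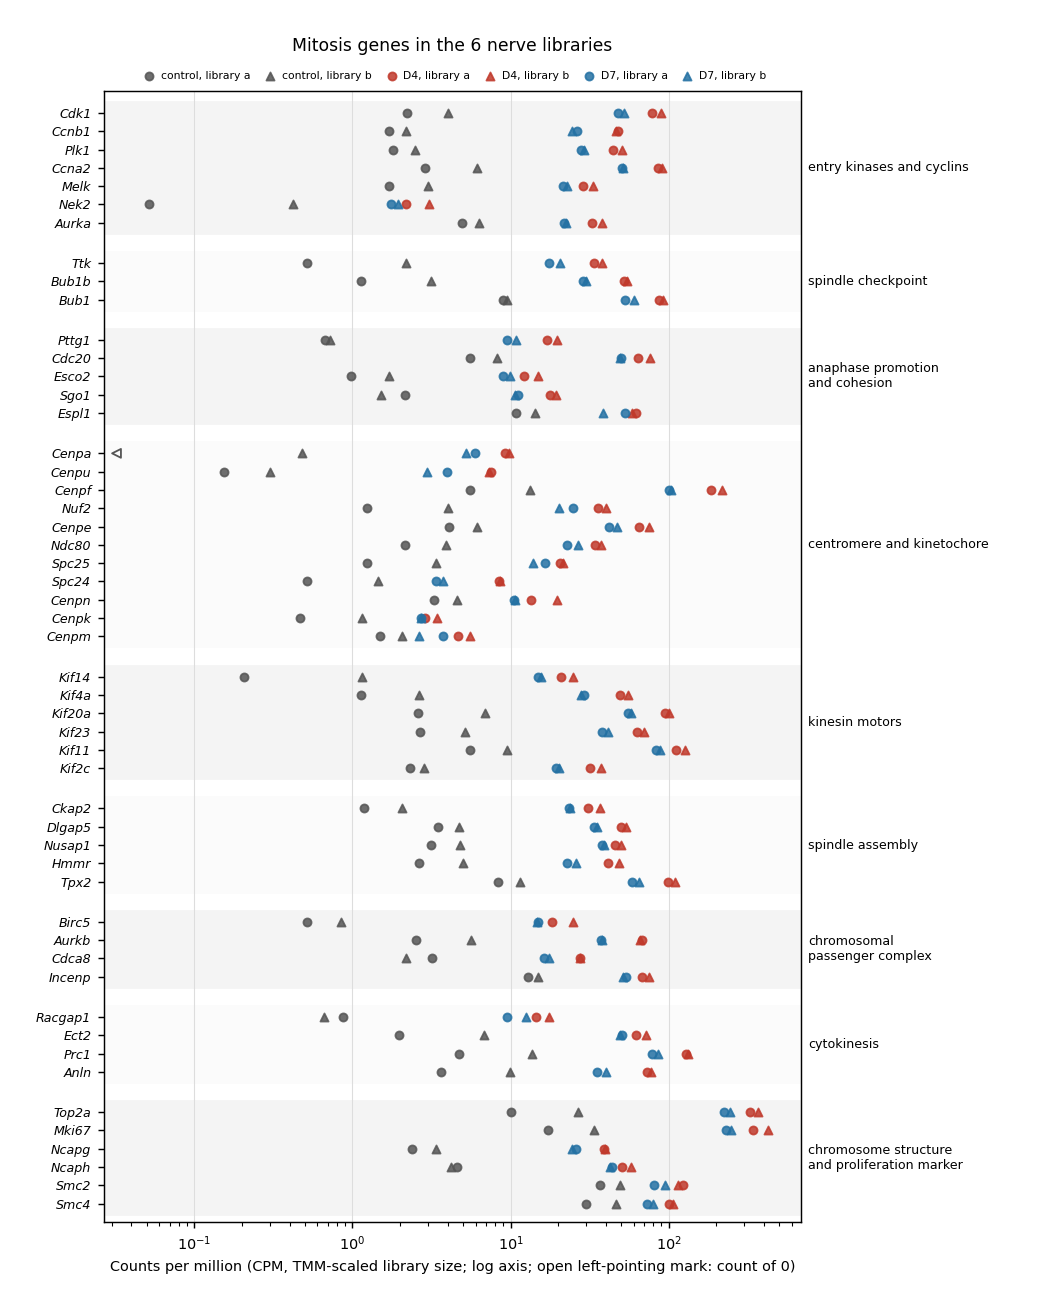
CPM of 51 mitosis genes on a log axis, 1 row a gene, grouped by role. Each point is 1 library (grey control, red D4, blue D7, circles library a, triangles library b), and the open mark shows the count of 0 for Cenpa in control library a. In each row both red points lie to the right of both blue points, and both blue points to the right of both grey ones.

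Control library b stood above control library a in 47 of 51 members, with a median log2 ratio of 0.79 (1.73-fold), while 47.1% of all mRNAs tested were higher in b. The 4 exceptions were Racgap1, Cdca8, Sgo1 and Ncaph. At D4 library b was the higher in 46 members by a median log2 ratio of 0.17, and at D7 in 35 by 0.06. The counts behind the control values were small. In control library a 8 members had 10 counts or fewer, in control library b 3 did, and Nek2, Cenpa and Cenpu were at 10 or fewer in both. The filter on low counts asked for at least 2 libraries above its level, and control library a fell short for those 8 members. Nek2, Cenpa and Cenpu passed through the libraries of crushed nerve alone, where they are high. Ttk, Cenpk, Spc24, Kif14 and Birc5 needed a library of crushed nerve beside control library b. The inclusion of all 8 therefore depended on the rise. With at least 10 counts required in every library 46 members were tested, and 46 were called higher at D4. Without control library a the median D4 log2 fold change of the members was 3.52, and without control library b it was 4.18.

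Kinases and cyclins that drive entry into mitosis rose in 7 of 7 members at D4, with a median log2 fold change of 4.3, and remained called in 7 of 7 at D7. Cdk1, the kinase whose activity starts mitosis (Rnor_6.0, chr20:20576377-20591549), had 43 and 67 counts in control nerve, 1917 and 2423 at D4, and 1021 and 1056 at D7. No group overlapped another, and the log2 fold change was 4.76 ± 0.26 (SE, adjusted p = 0.000155) at D4 and 4.01 ± 0.26 (adjusted p = 0.000375) at D7. Ccnb1, which encodes cyclin B1, the activating partner of Cdk1, gave 33 and 36 counts in control nerve, 1162 and 1264 at D4, and 562 and 498 at D7. Its pairs of libraries were close, and its log2 fold changes were 4.61 ± 0.15 (adjusted p = 0.000112) and 3.72 ± 0.15 (adjusted p = 0.000201). Ccna2 (cyclin A2) showed 4.30 at D4. Plk1, a kinase of centrosome maturation and mitotic exit, reached 4.49.

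Aurka, the centrosomal Aurora kinase, rose least in the group. It had 96 and 104 counts in control nerve, 802 and 1027 at D4, and 464 and 453 at D7, a log2 fold change of 2.66 ± 0.16 (adjusted p = 0.00018) at D4. Melk, a kinase abundant in proliferating cells, differed least between the days in this group (-0.47 ± 0.22), with 33 and 50 counts in control nerve, 694 and 900 at D4, and 460 and 463 at D7. Nek2, a kinase that separates the centrosomes, had only 1 and 7 counts in control nerve, and 53 and 83 at D4. Its rise of 3.50 ± 0.69 (adjusted p = 0.00873) carried one of the widest errors among the members, and the call at D4 was lost without D4 library b.

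The spindle checkpoint, which holds anaphase until chromosomes are attached, was represented by 3 genes, and all 3 rose. Ttk, the kinase that sets the checkpoint at the kinetochore, gave 10 and 36 counts in control nerve, 824 and 1032 at D4, and 371 and 417 at D7. The D4 log2 fold change was 4.78 ± 0.49 (adjusted p = 0.000781), and control library b had over 2-fold the CPM of control library a. Bub1, which recruits checkpoint proteins to the kinetochore, had 175 and 157 counts in control nerve, 2103 and 2488 at D4, and 1134 and 1211 at D7. Its rise of 3.27 ± 0.11 (adjusted p = 0.000112) was among the most precisely measured. Bub1b, the BubR1 subunit of the inhibitor of the anaphase-promoting complex, rose by 4.66.

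The genes of anaphase and sister chromatid cohesion were higher in 5 of 5 members at D4 and at D7. Pttg1, which encodes securin, the inhibitor of separase, had 13 and 12 counts in control nerve, 417 and 531 at D4, and 203 and 218 at D7 (log2 fold change 4.71 ± 0.21 at D4, adjusted p = 0.00012). Espl1, which encodes separase itself, had 210 and 236 counts in control nerve, 1515 and 1587 at D4, and 1121 and 781 at D7. Its rise of 2.27 ± 0.20 (adjusted p = 0.000476) was the smallest in the group, while its inhibitor Pttg1 had the largest. Cdc20, the activator of the anaphase-promoting complex, rose by 3.36, Sgo1, the protector of centromeric cohesin, by 3.33, and Esco2, an acetyltransferase that establishes cohesion, by 3.35.

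Centromere and kinetochore genes spanned the widest range of D4 log2 fold changes of the 9 roles, from 1.53 to 5.36. All 11 rose at D4, and 10 were called at D7. Cenpa, the histone H3 variant that marks the centromere, had 0 and 8 counts in control nerve, 225 and 266 at D4, and 126 and 106 at D7. The fitted log2 fold change of 5.36 ± 0.75 (adjusted p = 0.00243) was the largest of the members, and its control level rested on 8 counts in 1 library. Cenpm, a subunit of the constitutive centromere network, had 29 and 34 counts in control nerve, 113 and 150 at D4, and 80 and 53 at D7, a rise of 1.53 ± 0.31 (adjusted p = 0.01) that was no longer called without D4 library b. Cenpk, of the same network, moved from 9 and 19 counts to 70 and 92 at D4 and 58 and 55 at D7. Its D4 log2 fold change was 1.98 ± 0.44 (adjusted p = 0.0137), a call lost without either D4 library. Cenpn (2.08) stood near Cenpm and Cenpk, and Cenpu (5.01), with 3 and 5 control counts, near Cenpa.

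The 4 subunits of the Ndc80 complex, which binds spindle microtubules at the kinetochore, rose by 3.56 (Ndc80), 3.88 (Nuf2), 3.14 (Spc24) and 3.21 (Spc25). Spc24 had 10 and 24 counts in control nerve, 207 and 233 at D4, and 72 and 76 at D7, so its D7 level stood at 41.8% of the D4 level, the lowest share of the members. Cenpf and Cenpe, large proteins of the outer kinetochore, rose by 4.43 and 3.78.

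Mitotic kinesins, the motors that slide and sort spindle microtubules, rose in 6 of 6 at D4 and were called in 6 of 6 at D7. Kif14, a motor of cytokinesis, had 4 and 19 counts in control nerve, 506 and 673 at D4, and 319 and 316 at D7 (5.12 ± 0.51 at D4, adjusted p = 0.000709). Kif2c, which depolymerises microtubules at the centromere, had 45 and 47 counts in control nerve, 775 and 1012 at D4, and 414 and 409 at D7, and its rise of 3.75 ± 0.17 (adjusted p = 0.00012) was the smallest of the motors. Kif4a, a motor of the chromosome arms and the midzone, gave 22 and 44, then 1202 and 1490, then 624 and 559 counts. Kif11, the motor that separates the spindle poles, gave 107 and 158, then 2738 and 3428, then 1764 and 1774 counts. Kif20a and Kif23, motors of the central spindle, rose by 4.38 and 4.10.

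Spindle assembly factors rose in 5 of 5. Ckap2, a microtubule-associated protein of the spindle, had 23 and 34 counts in control nerve, 758 and 990 at D4, and 500 and 482 at D7 (4.40 ± 0.25, adjusted p = 0.00016). Tpx2, which activates Aurora A on the spindle, had 161 and 191 counts in control nerve, 2404 and 2967 at D4, and 1257 and 1313 at D7 (3.40 ± 0.18, adjusted p = 0.000134). These were the ends of the range within this role. Hmmr, a spindle protein also known as a hyaluronan receptor, moved from 51 and 83 counts to 1001 and 1314 and then 488 and 525. Nusap1, a protein that bundles spindle microtubules, moved from 61 and 80 counts to 1119 and 1352 and then 805 and 782. Dlgap5, which stabilises kinetochore fibres, rose by 3.66.

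The chromosomal passenger complex carries Aurora B to centromeres and then to the midzone, and its 4 subunits rose unequally. Birc5, which encodes survivin, had 10 and 14 counts in control nerve, 447 and 671 at D4, and 316 and 296 at D7 (5.0 ± 0.28 at D4, adjusted p = 0.000162). Incenp, the scaffold, had 250 and 247 counts in control nerve, 1653 and 2019 at D4, and 1140 and 1036 at D7 (2.36 ± 0.12, adjusted p = 0.000124). Aurkb, the kinase, had 49 and 93, then 1649 and 1788, then 798 and 761 counts. Cdca8, which encodes borealin, rose by 3.34.

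Genes of cytokinesis rose in 4 of 4. Racgap1, a subunit of the centralspindlin complex, had 17 and 11 counts in control nerve, 351 and 470 at D4, and 202 and 254 at D7 (4.35 ± 0.27, adjusted p = 0.000196). Anln, the scaffold anillin of the contractile ring, had 70 and 165 counts in control nerve, 1769 and 2089 at D4, and 751 and 817 at D7 (3.48 ± 0.42, adjusted p = 0.0014). Ect2, which activates RhoA at the division plane, moved from 38 and 112 counts to 1514 and 1932 and then 1077 and 997. Prc1, which bundles midzone microtubules, rose by 3.84. In Anln, Ect2 and Prc1 control library b had more than 2-fold the CPM of library a.

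Genes of chromosome structure held both the members with the most counts and the smallest rises. Mki67, the coat protein of mitotic chromosomes used as a proliferation marker (chr1:207993895-208020454), had 336 and 556 counts in control nerve, 8333 and 11543 at D4, and 4906 and 5007 at D7. The log2 fold change was 3.92 ± 0.33 (adjusted p = 0.000409) at D4 and 3.24 ± 0.32 (adjusted p = 0.00102) at D7. Top2a, the topoisomerase that untangles sister chromatids, had 194 and 444 counts in control nerve, 7934 and 9974 at D4, and 4773 and 4908 at D7, with a rise of 4.24 ± 0.45 (adjusted p = 0.000892). Per length, the mean level of Top2a at D4 was 58.5 FPKM (fragments relative to gene length and library size) and that of Mki67 41.5. Prc1 (47.7), Cdc20 (42.3) and Cdk1 (42.2), of other roles, stood above Mki67 by this measure. Cenpa (4.03) and Nek2 (2.10) stood far below.

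Smc2 and Smc4, the ATPase core that both condensin complexes share, stood out in control nerve. Their mean control levels were 6.98 and 7.88 FPKM, higher than those of any other member, of which Cdc20 came next at 3.40. Smc4 had 587 and 764 counts in control nerve, 2449 and 2861 at D4, and 1547 and 1606 at D7 (1.44 ± 0.20, adjusted p = 0.00232). Smc2 rose by 1.47. Ncapg and Ncaph, subunits found in condensin I alone, rose by 3.78 and 3.62, and Ncaph had 89 and 70 counts in control nerve, 1230 and 1573 at D4, and 927 and 859 at D7.

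**Figure D2:**
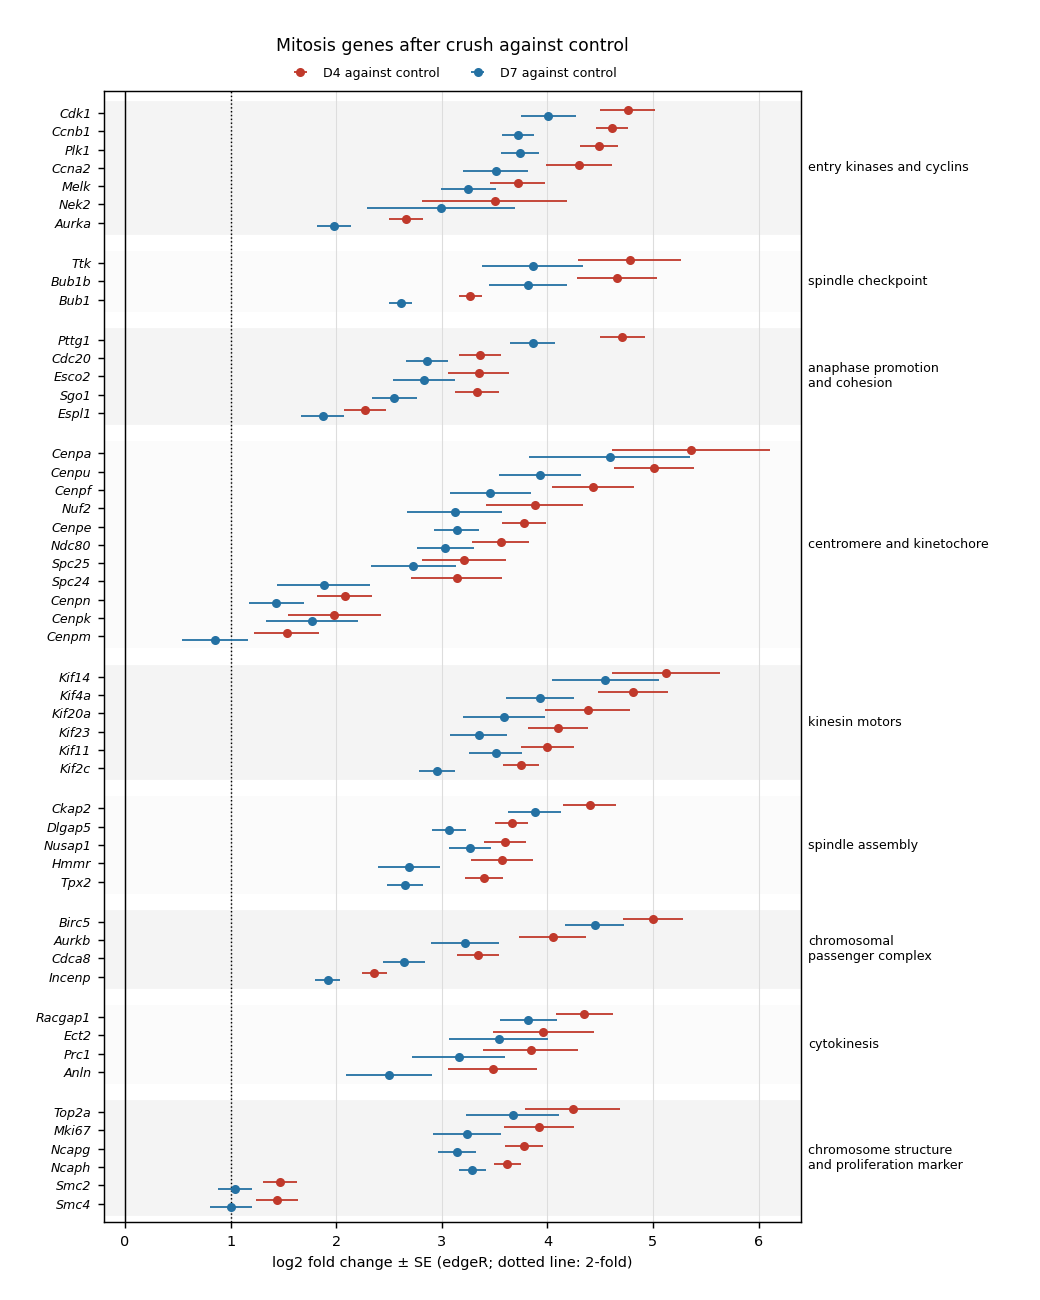
The log2 fold change against control, with its standard error, for 51 mitosis genes at D4 (red) and D7 (blue), from 1 fit of 6 libraries with 2 in each group. The D4 values run from 1.44 to 5.36 and each D7 value lies below the D4 value of its gene.

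Between D4 and D7 the members moved down together, by amounts that were mostly under 2-fold. No member passed the rule of adjusted p and 2-fold (0 of 51, beside 0.494% of all mRNAs tested), while 31 had an unadjusted p under 0.05 (beside 11.5%) and DESeq2 called 4 (Cenpf, Cenpu, Spc24 and Anln). By adjusted p alone 5 members fell, beside 1.79% of all mRNAs tested. Both D7 libraries lay below both D4 libraries in 51 of 51 members, beside 29.1% of all mRNAs tested. The rise at D4 and the later difference share the D4 libraries.

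The 5 that fell were Ccnb1 (log2 fold change -0.89 ± 0.12, adjusted p = 0.0247), Kif2c (-0.80 ± 0.14, adjusted p = 0.0384), Pttg1 (-0.85 ± 0.16, adjusted p = 0.0444), Bub1 (-0.66 ± 0.10, adjusted p = 0.0301) and Plk1 (-0.74 ± 0.15, adjusted p = 0.0483). Plk1 had 35 and 41 counts in control nerve, 1086 and 1379 at D4, and 590 and 593 at D7. These 5 did not have the greatest differences. Spc24 (-1.26 ± 0.38, adjusted p = 0.112) and Cenpu (-1.08 ± 0.27, adjusted p = 0.0804) were the 2 members with a difference of 2-fold or more, and their errors were wider.

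The median log2 fold change of D7 against D4 was -0.67, beside 0.01 for all mRNAs tested, and 40 members stood at -0.5 or below. The smallest differences were those of Cenpk (-0.20 ± 0.39), Nusap1 (-0.33 ± 0.17) and Ncaph (-0.34 ± 0.11). In log2 units the standard deviation across members was 0.21 for D7 against D4, beside 0.95 for D4 against control. The median change was also smaller, -0.67 beside 3.78, and the median SE of D7 against D4 was 0.23. The smaller deviation alone therefore does not show a more uniform change. Of the CPM gained by D4, the median member kept 58.3% at D7, from 34.2% in Spc24 to 82.3% in Cenpk.

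**Figure D3:**
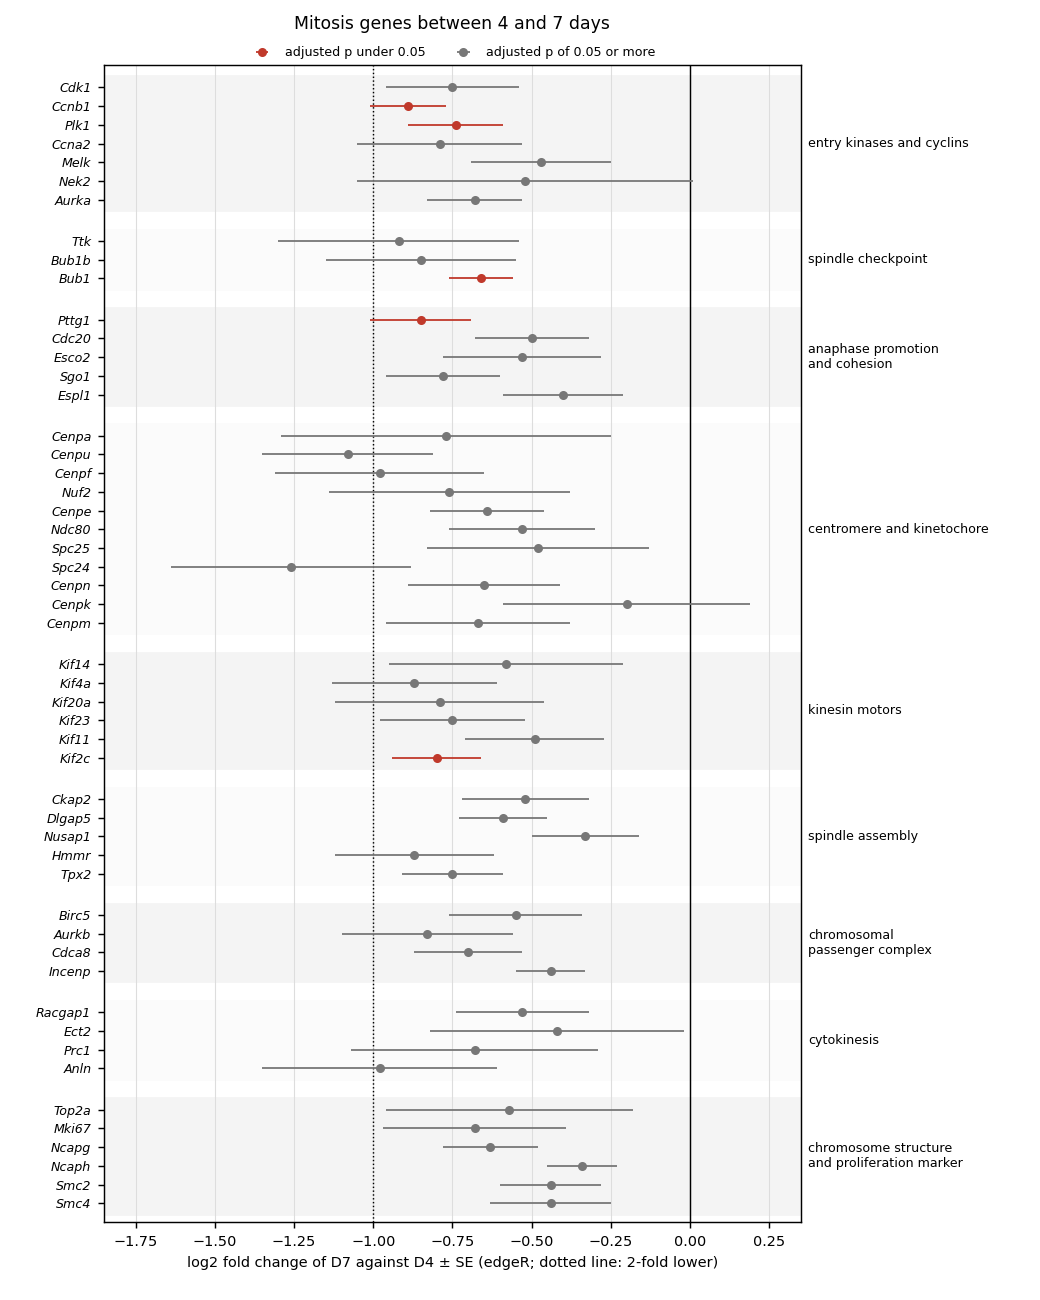
The log2 fold change of D7 against D4, with its standard error, for 51 mitosis genes grouped by role, 2 libraries a day. Red marks the 5 genes with an adjusted p under 0.05, and all 51 values lie below 0, between -1.26 and -0.20.

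Many late cell cycle genes are known to be controlled through a CHR element (cell cycle genes homology region) and CCAAT boxes near the transcription start, bound by the DREAM and MuvB complexes and by NF-Y. The letters of these elements were searched in RefSeq promoter windows of the rat build GRCr8, from 250 bases before to 50 after the start, on both strands. The searches were CCAAT, then TTTGAA or TTCGAA for the CHR, and for an E2F-like site TTTGGCGC, TTTCCCGC, TTTGGCGG or TTTCCCGG. A window was found for 45 of the 52 members, Ccnb2 included. Esco2, Ccna2, Aurkb, Kif14, Racgap1, Incenp and Tpx2 had no window there.

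CCAAT was present in 34 of the 45 (75.6%), beside 37.5% of all 33469 windows and 36.6% of the windows of tested mRNAs. CHR letters were present in 31 (68.9%), beside 19.7% and 13.9%, and both together in 26 (57.8%), beside 7.95% and 5.62%. E2F-like letters were present in 1 member, Birc5 (2.22%), beside 3.37% and 5.07%. The other mitosis genes held CHR letters in 47 of 68 (69.1%), CCAAT in 34 (50%) and both in 26 (38.2%). The replication genes held CCAAT in 21 of 34 (61.8%), E2F-like letters in 19 (55.9%) and CHR letters in 6 (17.6%). Of 39 CHR matches in the members' windows, 22 began within 100 bases before the start, and 2 overlapped a CCAAT match. Members tested with both kinds of letters had a median D4 log2 fold change of 3.92, and those without 3.66, a description with no test.

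The 120 bases before the start are shown for 7 members, chosen after their letters were seen. In 6 they show how CCAAT (or ATTGG, its complement) and CHR letters (TTTGAA, or TTCAAA on the other strand), in capitals, lie beside each other. Bub1 is shown as a member with neither in its annotated window. It was shown in place of Aurka, also without a match, whose annotated start may not be the first exon. The annotated starts were not checked, so a window without a match may miss the promoter.
Cdk1: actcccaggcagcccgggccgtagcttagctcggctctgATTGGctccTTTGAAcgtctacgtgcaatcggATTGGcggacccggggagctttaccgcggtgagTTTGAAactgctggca
Cdc20: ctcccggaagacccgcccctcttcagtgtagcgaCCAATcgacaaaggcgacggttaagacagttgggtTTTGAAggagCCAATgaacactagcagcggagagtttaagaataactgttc
Prc1: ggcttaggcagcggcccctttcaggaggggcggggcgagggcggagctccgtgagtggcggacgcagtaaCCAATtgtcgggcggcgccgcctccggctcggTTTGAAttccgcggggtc
Hmmr: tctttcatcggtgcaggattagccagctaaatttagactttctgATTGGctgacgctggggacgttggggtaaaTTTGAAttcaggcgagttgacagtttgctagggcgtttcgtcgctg
Ncapg: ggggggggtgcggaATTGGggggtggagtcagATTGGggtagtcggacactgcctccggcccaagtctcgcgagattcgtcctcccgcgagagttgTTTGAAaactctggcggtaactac
Pttg1: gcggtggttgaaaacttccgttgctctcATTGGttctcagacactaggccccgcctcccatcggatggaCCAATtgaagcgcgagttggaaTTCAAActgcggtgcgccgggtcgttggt
Bub1: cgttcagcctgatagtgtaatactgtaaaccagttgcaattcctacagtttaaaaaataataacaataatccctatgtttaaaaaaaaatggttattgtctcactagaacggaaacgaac

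In GRCr8 these windows are chr20:19265173-19265292 on the plus strand for Cdk1, chr5:137255800-137255919 on the minus strand for Cdc20, chr1:143659361-143659480 on the plus strand for Prc1 and chr10:25665216-25665335 on the minus strand for Hmmr. Those of Ncapg, Pttg1 and Bub1 are chr14:69645446-69645565, chr10:28406327-28406446 and chr3:135504922-135505041, all on the minus strand. Bub1, with none of these letters in its window, rose by 3.27 and Pttg1, with 3 CCAAT matches and 1 CHR match in its window, by 4.71. Other members went the opposite way. Cenpu, with no match in its window, rose by 5.01, and Smc4, with 1 CCAAT and 2 CHR matches, by 1.44. The letters are a description of the windows and were not tested as sites, nor was a link between letters and the size of the rise.

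A list of 20 transcriptional regulators of the cell cycle was examined, of which 8 rose and 2 fell at D4 and 7 were higher at D7. Not all of them read CHR or CCAAT elements. The 2 that fell, and NF-Y, are not among those given below. Mybl2, the B-Myb partner of MuvB, had 22 and 45 counts in control nerve, 697 and 914 at D4, and 297 and 274 at D7 (4.04 ± 0.35 at D4, adjusted p = 0.000466). Foxm1, the activator of late cell cycle genes, had 98 and 108, then 1406 and 1732, then 630 and 662 counts (3.40 ± 0.16, adjusted p = 0.000124). The repressors E2f7 (3.81) and E2f8 (3.41), E2f1 (1.83) and the pocket protein gene Rbl1 (2.02) rose as well. Lin9 (0.71) and Lin54 (0.24), subunits of the MuvB core, and Rbl2 (-0.43), the pocket protein of DREAM in resting cells, were not called.

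Of 77 other mitosis genes tested, 65 rose at D4 and 58 were higher at D7, with medians of 3.06 and 2.28. The largest D4 log2 fold changes were those of Pimreg (5.26), Oip5 (5.0), a loader of Cenpa, and Cenpw (4.74), a centromere subunit. The smallest were those of Smc3 (0.14), a cohesin subunit, Cdc25b (-0.06), a phosphatase that activates Cdk1, and Zwint (-0.63), a kinetochore protein. In this list 3 genes were lower at D7 than D4 by adjusted p and 2-fold, namely Mastl, Cdkn3 and Pimreg. Of 40 replication genes, 38 rose at D4 and 31 were higher at D7, with medians of 2.05 and 1.49, and 1 (Tk1) was lower at D7 than D4. Among them Rrm2 (5.31), Uhrf1 (4.05) and Tk1 (3.76) had the largest D4 values, and Pola1 (0.97) and Lig1 (1.06) were among the smallest.

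**Figure D4:**
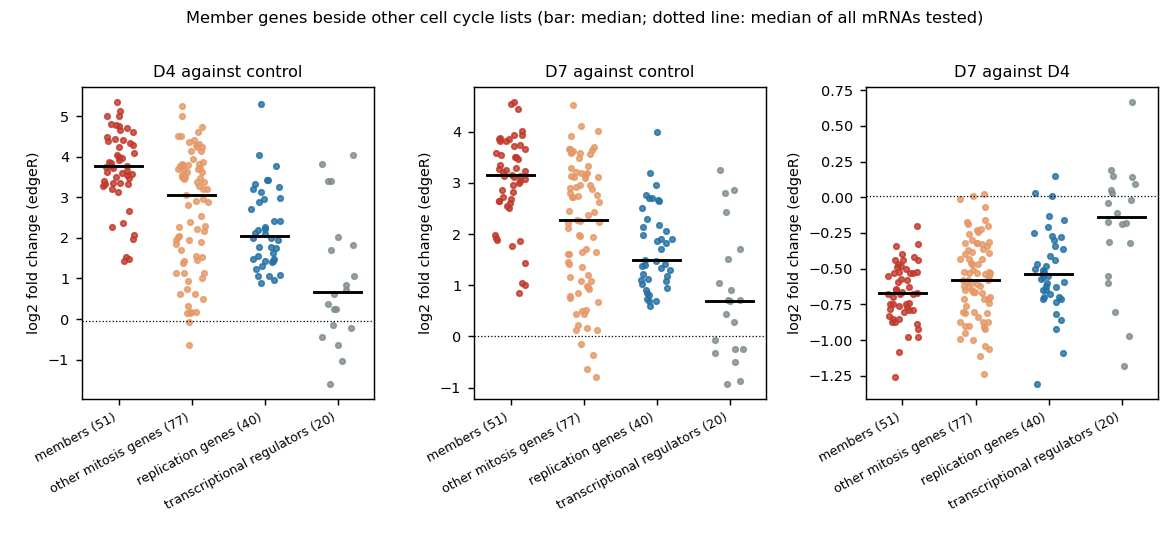
The log2 fold changes of 51 member genes beside 77 other mitosis genes, 40 replication genes and 20 transcriptional regulators, in the 3 comparisons. Each point is a gene, spread sideways for sight alone, and the bars mark medians of 3.78, 3.06, 2.05 and 0.67 for D4 against control.

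Markers of the cell types that a nerve can hold moved in the same libraries. All 10 macrophage markers rose at D4 and 8 were called at D7, and their summed level was 583.9 and 555.1 CPM in control nerve, 2175 and 2145 at D4, and 1518 and 1737 at D7. Of 12 Schwann cell markers 2 rose and 7 fell at D4, led by the myelin gene Prx (-7.42) and the repair marker Ngfr (6.46), while Sox10, which defines the lineage, stood at 0.07. Their summed level was 105700 and 72450 CPM in control nerve, 8037 and 8866 at D4, and 21860 and 14780 at D7. None of 7 fibroblast markers rose at either day and 1 was lower at D7, and of 7 endothelial markers 4 fell at D4 and 6 were lower at D7. The 6 adipocyte markers summed to 1526 and 1213 CPM in control nerve, 378.6 and 194.2 at D4, and 21.08 and 498.8 at D7, with 0 called at D4 and 1 lower at D7. The summed level of the 6 skeletal muscle markers tested ranged between 7.09 CPM in D4 library b and 84.5 in D4 library a, and 1 marker was lower at each day. Of 5 lymphocyte markers tested 2 rose and 1 fell at D4, and 3 were higher at D7, at a summed level between 2.11 and 8.12 CPM. The part of each cell type in the members' rise was not tested.

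Long noncoding RNA (lncRNA) transcripts that overlap a member's span by at least 1 base gave a second, separate table. There were 56 such transcripts at 33 members, 43 of them wholly inside the span, and 35 passed the filter on low counts. At D4, 19 rose and 1 fell, beside 5.19% of all 14077 lncRNAs tested called higher, and at D7, 12 were higher, beside 3.00%. The median log2 fold changes were 3.1 and 2.46. None was called between the days by edgeR, where 4 had an unadjusted p under 0.05 downwards and 3 upwards, and DESeq2 called 2 lower. Whether counting used the strand is not given in the sources used here, so fragments of a member's mRNA and of such a transcript cannot be told apart.

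Within the Mki67 span, NONRATT003292.2 (chr1:208000147-208001329) had 4 and 11 counts in control nerve, 1000 and 1637 at D4, and 548 and 601 at D7 (7.24 at D4, adjusted p = 0.00325). NONRATT005985.2, inside Top2a, had 20 and 22, then 339 and 489, then 216 and 274 counts (4.12, adjusted p = 0.00239). Not all followed their gene. NONRATT013736.2, which overlaps Kif20a in part, had 112 and 134 counts in control nerve, 47 and 43 at D4, and 131 and 112 at D7 (-1.61 at D4, adjusted p = 0.0189), while Kif20a went from 50 and 115 counts to 2317 and 2736 and then 1181 and 1172. NONRATT009413.2, inside Ncapg, had 59 and 52, then 43 and 55, then 125 and 80 counts (-0.34 at D4, adjusted p = 0.486). These 4 transcripts were chosen after their values were seen.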

How the data were processed

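RNA of whole sciatic nerve was sequenced by the study, aligned with HISAT2 2.0.4 to Rnor_6.0 and assembled with StringTie 1.3.0, per the submitters' processing notes. The deposited tables give, for mRNA genes and lncRNA transcripts, raw counts and FPKM of 6 libraries. Tests used the counts as deposited, in edgeR 4.0.16 (R 4.3.3): filterByExpr, TMM factors, and a quasi-likelihood fit of 3 groups with 3 residual degrees of freedom. The deposited FPKM values served only to compare levels between genes. Errors are SE of the log2 fold change or SD of 2 libraries. Each library came from 1 rat, per the study's methods. All 51 members, and by a rule of largest and smallest changes within each role the genes given with counts, were named, except 1 replication gene that is not reported here. The members and lists were chosen with earlier results of these data known. The code was tested on simulated data. Alternatives were DESeq2 1.42.0, no TMM factors, other count filters and fold thresholds, a replicate block, fits of 2 groups, and leaving out each library.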

Additional observations from a re-analysis of the deposited data

Results flagged for a closer look

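The responses at 4 and 7 days differed by their own test (D7 against D4, edgeR's quasi-likelihood test, Benjamini-Hochberg adjusted p under 0.05) in 5 of 51 members, 7 of 77 other mitosis genes, 7 of 40 replication genes and 2 of 20 regulators. Each of these genes was lower at D7, beside 1.79% of all mRNAs tested that were lower by the same rule. Values are given for the members, the regulators and, of the other lists, the genes with the largest or smallest D4 changes. Among the members the log2 fold change was -0.89 for Ccnb1, -0.74 for Plk1, -0.66 for Bub1, -0.85 for Pttg1 and -0.80 for Kif2c. Among the regulators it was -0.97 for Foxm1 (adjusted p = 0.0269) and -0.80 for E2f1 (adjusted p = 0.0236). Pimreg, of the other mitosis genes, gave -1.24 (adjusted p = 0.0444), and the thymidine kinase gene Tk1 -1.09 (adjusted p = 0.0404).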

How the results depend on the processing

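All 51 members were higher at D4 and at D7 than in control nerve, and lower at D7 than at D4, in each of the 16 alternatives that tested them. The alternatives that only changed the fold threshold or tested a 2-fold change kept the fold changes of the main fit. Those could not alter a direction. Calls did move. Members called lower at D7 than D4 numbered 0 here, 2 with only the 2 groups compared (Cenpu and Spc24), 4 with DESeq2, 5 with no fold threshold, and from 0 to 1 (Spc24, without either control library) when a library was left out. At D7, Nek2 lost its call without either D7 library, Spc24 without D7 library b, Smc2 without control library a or D7 library b, and Cenpk without any 1 library except control b. The median member log2 fold change ran from 3.52 to 4.18 at D4 and from 2.87 to 3.64 at D7 when a library was left out, with both ends set by the control libraries. Without TMM factors the median of all mRNAs tested shifted to 0.25 at D4 and 0.31 at D7, Cenpm and Smc4 were called at D7, and the uncalled D7 values of Lin54 and Rbl2 turned to 0.22 and 0.05. Lin9 at D7 against D4 ran from -0.08 to 0.02 without a library.

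The lncRNA counts were the least stable. Of the transcripts at members, 19 were higher at D4, against 12 with no low-count filter, 5 with at least 10 counts in every library, 10 when a 2-fold change was itself tested, and 8 to 13 without a library. At D7 the count of 12 became 4, 7 and 4 to 10 under the latter 3, and DESeq2 called 2 lower between the days. The stricter filter and the left-out library leave fewer transcripts or samples, and the cause of the other shifts was not tested.

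The letters a and b were not shown to pair rats. Correlations of same-letter deviations were 0.0103, 0.195 and -0.134 for mRNAs. With the letter as a replicate block, 51 members were called at D4, 50 at D7 and 0 between the days, and 11 lncRNA transcripts at D4. With the D4 letters exchanged, an alternative chosen after seeing the data, the block gave 51, 50 and 0 members, and 12 transcripts.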
